A study of Mus musculus with 6 samples.

Results

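The genes described here are the transcription factor gene Myc and 54 genes whose products make and assemble ribosomes in the nucleolus. They were found by gene symbol in the deposited table, and 55 of 55 symbols were present among 24964 genes. The list was chosen from the FPKM of the same 6 samples, with the Foxo1dd against Foxo1ff differences known, so the levels, changes and counts of these 55 genes are a description and test nothing. No threshold was part of that choice. The samples are 6 RNA-seq libraries of mouse uterine luminal epithelium, which faces the cavity of the uterus, taken by laser capture on pregnancy day 4 from females that had been housed with littermates until 8 weeks of age. All the females carried Foxo1 alleles flanked by loxP sites (Foxo1f/f). Of the libraries, 3 came from females without Cre (Foxo1ff). Another 3 came from females that also carried a copy of the Pgrcre allele, which places Cre at the progesterone receptor gene (Pgrcre/+Foxo1f/f, called Foxo1dd). Pgrcre acts in any cell that expresses Pgr, so stroma and muscle are targets besides epithelium, and the genotypes also differ at Pgr itself. The labels number the samples as bioreplicates and say nothing of the animals behind each, so errors measure the spread between these samples.

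Ribosomes are built in the nucleolus. RNA polymerase I copies the ribosomal DNA into a long precursor, small nucleolar ribonucleoproteins (snoRNPs) guide its methylation, pseudouridylation and cleavage, and large sets of assembly factors fold the pieces with ribosomal proteins into the small and the large subunit. MYC, paired with MAX, is known as a broad activator of the genes for these steps. In the uterus the luminal epithelium grows under estrogen early in pregnancy and stops dividing under progesterone before the embryo attaches.

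Levels are FPKM, the authors' length- and depth-scaled unit. Changes are differences of log2(FPKM + 1), Foxo1dd minus Foxo1ff, with the standard error (SE) from a linear model fitted across all genes with limma. A gene was called at an adjusted p under 0.05. The added 1 shrinks the changes of genes at low FPKM, so an order by log2 change can differ from one by fold. Foxo1 itself was at 111 to 160 in the Foxo1ff samples against 0.942 to 1.72 FPKM in the Foxo1dd samples, and Pgr, the locus of the Cre insertion, at 1.64 to 2.44 and 28.3 to 36.2 FPKM. Summed FPKM was 613186 to 667499 in Foxo1ff and 552190 to 564628 in Foxo1dd. Steps in the values of short RNA genes put the divisor at about 73583517 to 98039216 reads a library (Foxo1dd 2 being read from only 26 genes), and by this measure the least covered value among the 55 genes, Myc in Foxo1dd 2, rested on about 397 reads. Of 20 luminal and pan-epithelial markers none was at 0 or below 1 FPKM throughout, and their sum was 4841 to 6009 FPKM in Foxo1ff and 5691 to 6680 in Foxo1dd. The sum hides changes both ways: 8 of the 20 were called higher, Lpar3 and Elf3 among them, and 4 lower, Spint1 among them. Lpar3 had means of 5.20 in Foxo1ff and 174.9 FPKM in Foxo1dd, and Spint1 371.5 and 87.3 FPKM. The sum of 14 stroma markers was 40.2 to 44.3 and 42.5 to 62.5 FPKM, that of 9 glandular markers 53.4 to 214 and 7.49 to 28.8 FPKM (Ttr at 0 in every sample; of 5 tested, Spink1, which made up most of the Foxo1ff sum, Prss28 and Prss29 were lower and Sox9 and Lif higher), and that of 15 leukocyte markers 51.7 to 100.9 and 80.5 to 96.3 FPKM (S100a8 at 0 in every sample). Of 9 leukocyte markers tested, 7 were lower, Ptprc among them, and Cd68 and Laptm5 were higher. Of 11 stroma markers tested, 3 were higher and 0 lower. The sum of 6 smooth muscle markers was 2.99 to 5.33 and 3.77 to 4.76 FPKM. The sum of 10 endothelial markers was 45.9 to 55.7 and 258 to 362 FPKM, nearly all of it Sox17, which uterine epithelium also expresses and which was the only one of the 10 to pass the filter. In strips of tissue, fewer cells of a type and less RNA per cell cannot be told apart, and the part of other cell types in the results was not tested.

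Of the 55 genes, 50 were called lower in Foxo1dd, 1 was called higher (Nob1) and 4 were not called (Polr1c, Ubtf, Rrn3 and Bms1). Over all 11427 genes tested, 34.2% were called lower and 22.2% higher, and nothing is read from the comparison because the same contrast chose the genes. The median log2 change of the 55 genes was -1.04, with a range from -4.17 for Myc to 0.44 for Nob1, and that of all tested genes was -0.15. A log2 change of -1 or below was seen in 29 of the 50, as in 15.8% of all tested genes. All 3 Foxo1dd values lay below all 3 Foxo1ff values for 51 of the 55 genes, as they did for 39.0% of all tested genes, and above them for 1, as for 25.3% of all tested genes. Scaling the libraries by the median of ratios moved the median of all tested genes from -0.15 to -0.0045, and small falls are to be read against that shift of about 0.14. Under that scaling 45 of the 55 genes were called lower and 1 higher, beside 28.8% and 28.0% of all tested genes. Nhp2, Ltv1, Pno1, Imp3 and Bop1 lost the call there. As a share of all FPKM in a sample, the 55 genes made up 0.550% to 0.579% in Foxo1ff and 0.304% to 0.348% in Foxo1dd.

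**Figure D1:**
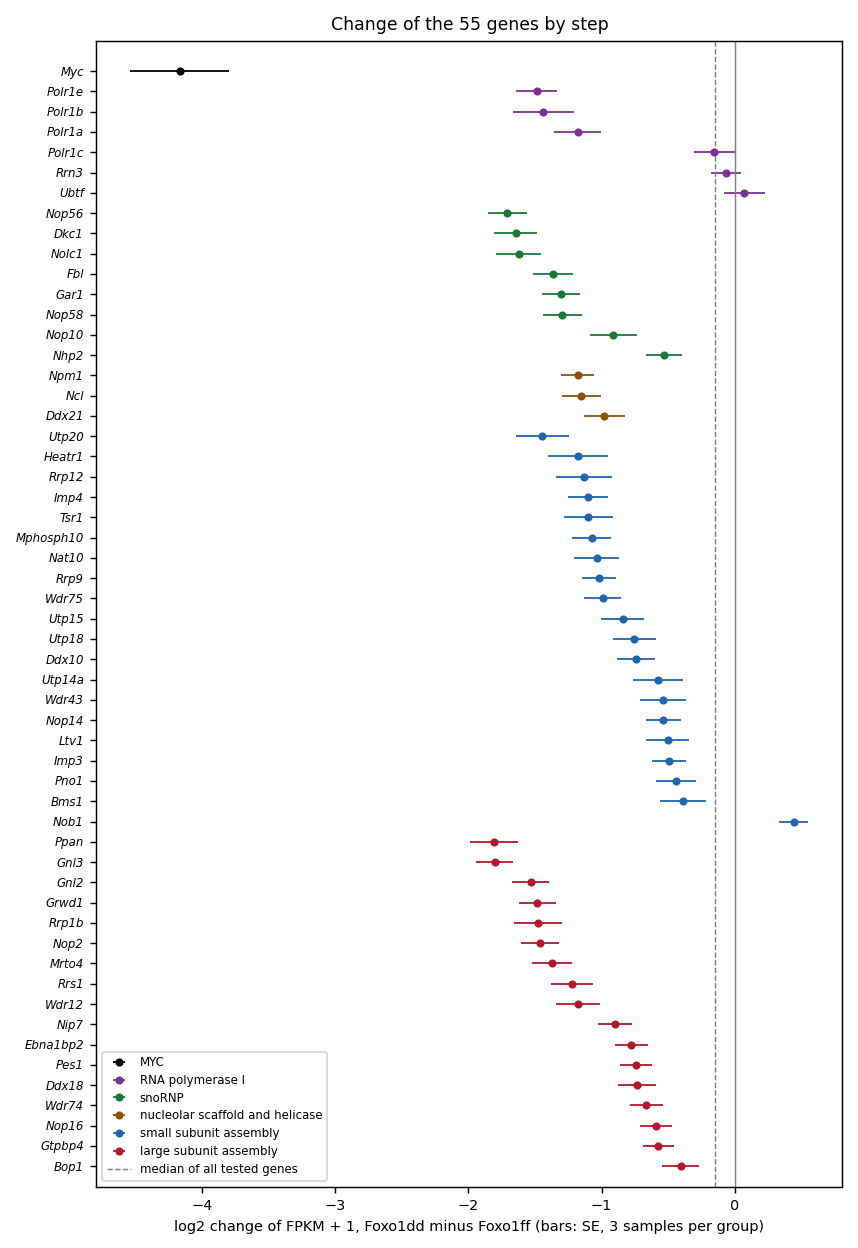
Log2 change of FPKM + 1 (Foxo1dd minus Foxo1ff, horizontal axis) for each of the 55 genes, coloured by step; bars are the SE, the solid line is 0 and the dashed line the median of all tested genes (-0.15). Myc lies farthest to the left at -4.17, most assembly genes lie between -0.4 and -1.9, and Polr1c, Rrn3, Ubtf and Nob1 lie near or above 0.

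Myc (chromosome 15, 61985391 to 61990374, plus strand, GRCm38, the assembly that mm10 names) had the largest difference of the 55. Its level was 139, 92.7 and 83.1 in the Foxo1ff samples against 7.84, 1.98 and 6.17 FPKM in the Foxo1dd samples. The groups lay far apart, Foxo1dd 2 being the lowest and the most distant from its own group. The mean was 19.7-fold lower in Foxo1dd (log2 change -4.17 ± 0.37, SE, n = 3 per group), and the log2 change was between -4.48 and -3.70 on leaving out each sample. Other genes of the MYC network, which dimerize with MYC or MAX, compete for the same sites or control the turnover of MYC, were listed separately. This list and the other gene lists were chosen with earlier results of these data known, so their counts and shares are descriptions. Of 17 tested, 3 were higher and 8 lower, 47.1% against the 34.2% of all tested genes. Without Foxo1ff 2 the 8 lower became 4 of 17, a smaller share than that background, and at a minimum of 5 FPKM they became 5. Mycn, a close relative of Myc, was at 88.2, 101 and 77.0 FPKM with Foxo1 intact and at 45.6, 22.97 and 27.4 FPKM without it, and fell by 1.49 on the log2 scale (limma adjusted p = 5.20e-04). Mycl, the remaining relative, rose from 6.59 ± 1.18 to 17.2 ± 0.936 FPKM (log2 change 1.27, limma adjusted p = 1.31e-04). Mxd1, a MAX partner that represses MYC sites, fell by 1.63 on the log2 scale, and Skp2, a ubiquitin ligase subunit that acts on MYC, by 1.45. Max itself was not called, with a log2 change of -0.13.

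MYC with MAX is known to bind the E-box word CACGTG, which reads the same on both strands. Promoter windows (250 bases before to 50 after the gene start, RefSeq, GRCm38.p6) were found for 48 of the 55 genes. They were not in the table for Myc, Fbl, Npm1, Rrp12, Rrs1, Bop1 and Gnl2. The word was present for 11 of the 48 genes, 22.9% (exact binomial 95% interval 12.03 to 37.3%), against 12.2% of 8785 tested protein-coding genes and 8.09% of all 27025 genes of the table. That interval treats the genes as independent draws, and it holds the 12.2%. A gene was counted when any of its windows held the word, and windows per gene differed between lists. The 48 genes had 56 windows and the 8785 genes 11190. The p53 targets below had 16 windows for 11 genes, and the MYC-activated genes 42 for 29. In gene lists described below the share was 54.55% for p53 targets, 44.8% for MYC-activated genes and 26.7% for RNA polymerase III genes. It was 29.4% for the MYC network, and 20.0% and 19.05% for further small and large subunit assembly genes. Cytosolic and mitochondrial ribosomal protein genes had 10.5% and 7.25%, snoRNP assembly factors 0%, and the other lists 12.5% to 18.2%. Since the word holds a CG pair, base composition bears on it: the mean GC content of the windows was 57.9% for the 48 genes and 61.2% for tested protein-coding genes, with 21.3 and 21.8 CG pairs a window. The stretches below show each word in capitals with the bases around it, 5′ to 3′ along the gene, because they are the letters that the count above rests on.

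Nop2 (chr6:125131811-125131840, plus strand): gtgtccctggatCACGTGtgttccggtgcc
Imp4 (chr1:34439696-34439725, plus strand): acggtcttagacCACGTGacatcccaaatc
Utp18 (chr11:93885769-93885798, minus strand): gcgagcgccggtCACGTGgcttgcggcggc
Pes1 (chr11:3963965-3963994, plus strand): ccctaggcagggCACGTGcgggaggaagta
Wdr43 (chr17:71616220-71616249, plus strand): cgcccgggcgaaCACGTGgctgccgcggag
Tsr1 (chr11:74898092-74898121, plus strand): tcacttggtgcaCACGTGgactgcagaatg
Ltv1 (chr10:13193092-13193121, minus strand): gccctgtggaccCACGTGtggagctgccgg
Grwd1 (chr7:45830740-45830769, minus strand): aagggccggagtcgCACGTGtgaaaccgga
Pno1 (chr11:17211540-17211569, minus strand): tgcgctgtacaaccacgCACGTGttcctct
Utp20 (chr10:88826765-88826794, minus strand): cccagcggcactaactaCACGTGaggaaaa
Rrn3, far word (chr16:13780472-13780501, plus strand): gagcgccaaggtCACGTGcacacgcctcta
Rrn3, near word (chr16:13780639-13780668, plus strand): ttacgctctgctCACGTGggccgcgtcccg

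Counted from the gene start, the word began at -121 in Imp4, -60 in Nop2, -20 in Utp18 and between 3 and 38 in Pes1, Wdr43, Tsr1, Ltv1, Grwd1, Pno1 and Utp20. Rrn3 was the only one of the 48 with a pair of words, at -215 and -48, and its level did not differ between the groups by more than its error (below). The upstream 250 bases of Nop2, which was lower in Foxo1dd, and of Rrn3 are given whole, so that a reader can set a promoter with the word from a gene that changed beside that of a gene that was not called.

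Nop2 (chr6:125131633-125131882, plus strand): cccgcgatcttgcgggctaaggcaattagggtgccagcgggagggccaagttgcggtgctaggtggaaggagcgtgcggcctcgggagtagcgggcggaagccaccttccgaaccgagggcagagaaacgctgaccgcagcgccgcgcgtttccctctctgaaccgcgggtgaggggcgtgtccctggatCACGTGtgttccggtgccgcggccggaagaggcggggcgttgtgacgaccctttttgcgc
Rrn3 (chr16:13780449-13780698, plus strand): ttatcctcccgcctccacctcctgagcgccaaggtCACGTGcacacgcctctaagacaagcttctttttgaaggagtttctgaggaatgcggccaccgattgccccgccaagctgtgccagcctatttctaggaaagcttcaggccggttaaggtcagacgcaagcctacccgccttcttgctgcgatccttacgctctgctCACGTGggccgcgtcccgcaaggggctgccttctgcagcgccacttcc

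As a description of values that chose the genes, from which nothing is read about the word, the 11 genes with it had a median log2 change of -0.76 (10 called lower), and the 37 without it -0.99 (33 called lower). No promoter of the 7 snoRNP genes in the table held the word, and 7 of 19 small subunit assembly genes did. Among tested protein-coding genes, 39.6% of the 1068 with the word were called lower and 34.2% of the 7717 without it. A match of letters is no measured binding site, and absence from this window says nothing of sites elsewhere.

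Of 6 genes for RNA polymerase I and its factors, 3 were called lower and 3 were not called. Polr1a, the largest subunit, was at 18.8, 15.5 and 12.6 in the Foxo1ff samples against 7.10, 5.40 and 6.38 FPKM in the Foxo1dd samples. Polr1b, the second largest subunit, was at 23.0, 17.96 and 17.4 against 9.61, 4.79 and 5.88 FPKM. Polr1e, a subunit found in RNA polymerase I alone, was at 7.61, 7.81 and 7.85 against 2.13, 1.87 and 2.40 FPKM. For these 3 genes the groups did not overlap, and log2 changes were -1.18 ± 0.18, -1.44 ± 0.23 and -1.49 ± 0.15 (SE, n = 3 per group). Polr1c, a subunit shared with RNA polymerase III, was at 48.2, 69.7 and 63.5 in the Foxo1ff samples against 48.3, 56.5 and 56.4 FPKM in the Foxo1dd samples. Ubtf, which binds and opens the ribosomal DNA, was at 38.9, 34.3 and 29.3 against 37.6, 30.2 and 40.1 FPKM. Rrn3, the initiation factor that brings the polymerase to the promoter, was at 34.4, 32.4 and 32.0 against 31.0, 33.2 and 29.98 FPKM. The groups overlapped for each of these last 3 genes, with log2 changes of -0.15 ± 0.15, 0.07 ± 0.15 and -0.07 ± 0.11 (SE, n = 3 per group). The sign for Rrn3 turned under median-of-ratios scaling (0.08) and quantile normalization (0.09), and for Ubtf without Foxo1ff 3 (-0.03) or Foxo1dd 3 (-0.0089). Polr1c was called lower under array weights (-0.34).

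Of 12 further RNA polymerase I and ribosomal DNA genes, 7 were lower and 1 higher (58.3% lower, against 34.2% of all tested genes), with a median log2 change of -0.69. Twistnb, a polymerase stalk subunit, fell from 25.2 ± 1.07 to 10.4 ± 0.921 FPKM, and Taf1d, part of the promoter selectivity complex, from 43.9 ± 2.31 to 17.0 ± 2.84 FPKM (SD, n = 3 each; limma adjusted p = 5.43e-05 and 6.12e-05). Mybbp1a, a nucleolar protein tied to transcription and processing of the precursor, fell by 1.32 on the log2 scale, and Polr1d, a subunit shared with RNA polymerase III, by 0.71. Znrd1, a small polymerase subunit that rose by 0.65 log2, was named after its values were seen, and the call was lost without Foxo1dd 1. Rn45s, the gene model of the ribosomal RNA precursor, was at 23715, 23783 and 31304 in the Foxo1ff samples against 30479, 40296 and 30721 FPKM in the Foxo1dd samples. The groups overlapped and Rn45s was not called (log2 change 0.37 ± 0.24, SE, n = 3 per group, limma adjusted p = 0.233). Reads on this gene model include mature ribosomal RNA left in a library, so its level is no direct measure of transcription. Of 22 RNA polymerase III genes tested, 4 were lower and 2 higher (18.2% and 9.09%, against 34.2% and 22.2% of all tested genes). Under median-of-ratios scaling 3 were lower and 5 higher, beside 28.8% and 28.0% of all tested genes. The medians without and with that scaling were -0.16 and -0.02. The 4 with the smallest p were Brf1, a subunit of its initiation factor (log2 change 1.00), Polr3e (-1.06), Polr3k (-0.56) and Bdp1 (-0.57). The 4 lower became 2 without Foxo1ff 1, Foxo1ff 2 or Foxo1dd 2, and the 2 higher became 4 without Foxo1dd 2 and 1 without any other sample.

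**Figure D2:**
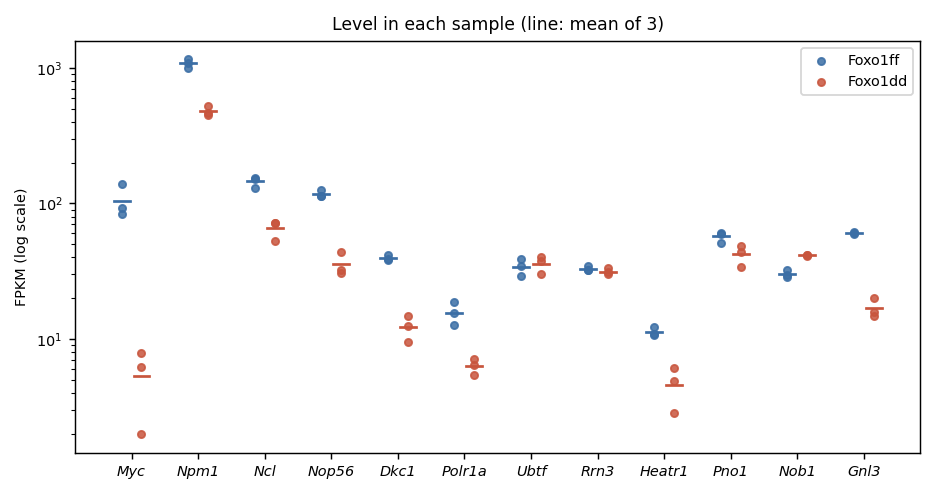
FPKM on a log axis for 12 of the 55 genes, each point a sample (3 Foxo1ff, 3 Foxo1dd) and each line the mean of 3. The Foxo1dd points of Myc, Npm1, Ncl, Nop56, Dkc1, Polr1a, Heatr1, Pno1 and Gnl3 lie below all Foxo1ff points, those of Ubtf and Rrn3 overlap, and those of Nob1 lie above.

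The 8 snoRNP genes, 7 for core proteins and Nolc1, were called lower, with a median log2 change of -1.33. Box C/D snoRNPs, which methylate the ribose of ribosomal RNA, are built on Nop56, Nop58 and the methyltransferase fibrillarin (Fbl). Nop56 was at 113, 125 and 114 in the Foxo1ff samples against 43.9, 30.9 and 32.4 FPKM in the Foxo1dd samples. Nop58 was at 155, 156 and 147 against 75.8, 52.3 and 59.0 FPKM. Fbl was at 75.2, 80.6 and 71.8 against 34.1, 23.1 and 30.3 FPKM. The 3 genes had tight Foxo1ff values and no overlap, and were 3.29-fold, 2.45-fold and 2.60-fold lower.

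Box H/ACA snoRNPs, which convert uridine to pseudouridine, hold the catalytic subunit dyskerin (Dkc1) with Nhp2, Nop10 and Gar1. Dkc1 was at 41.9, 39.0 and 38.3 in the Foxo1ff samples against 14.7, 9.50 and 12.4 FPKM in the Foxo1dd samples. Nhp2, in contrast, was at 141, 165 and 183 against 106, 125 and 106 FPKM. Both sets were separated, but the log2 changes were -1.65 ± 0.16 for Dkc1 and -0.53 ± 0.13 for Nhp2 (SE, n = 3 per group). Gar1 (-1.30 ± 0.14) lay nearer to Dkc1, and Nop10 (-0.91 ± 0.18) lay between. Nolc1, a nucleolar chaperone of snoRNPs, was at 50.7, 46.9 and 43.7 against 18.7, 11.8 and 14.1 FPKM.

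A list of 12 further snoRNP genes held assembly factors and Snu13, a core protein of the box C/D particle (log2 change -0.63, named after its values were seen). Of the 12, 7 were lower and 0 higher (58.3% lower, against 34.2% of all tested genes). Their median log2 change was -0.54. Limma called none higher, and 0 were higher at an unadjusted p under 0.05. The 4 with the smallest p were Naf1 and Shq1, chaperones of the H/ACA particle (log2 changes -1.32 and -1.20), and Ruvbl2 and Ruvbl1, a pair of ATPases of the assembly complex (-1.03 and -0.83). Of 17 tested host genes that make no protein but carry snoRNAs in their introns, 9 were lower and 0 higher (median -0.50). The share lower was 52.9%, against 34.2% of all tested genes, of which 22.2% were higher. At an unadjusted limma p under 0.05, 1 host gene was higher. Under median-of-ratios scaling 2 were called higher, beside 28.0% of all tested genes, and without Foxo1dd 2, 1 was. Snhg4, Snhg18, Snhg17 and Snhg1 had log2 changes of -1.49, -1.64, -1.29 and -1.12.

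The snoRNA genes inside the 55 genes were counted by position. The 55 genes share a function, and position need not be independent of it, so nothing is read from the shares. A snoRNA gene lay inside 8 of the 55 genes on the same strand (14.5%), against 2.72% of 11297 tested genes with a position in GENCODE M21. The hosts were Nop56, Nop58, Dkc1, Ncl, Wdr43, Tsr1, Gnl3 and Ppan, and held 23 snoRNA genes, of which 12 had a row in the table and 5 passed the filter. Snord69, a box C/D snoRNA within Gnl3, had the highest level. It was at 12.7, 12.03 and 18.9 in the Foxo1ff samples against 0.220, 0 and 1.40 FPKM in the Foxo1dd samples. Its log2 change was -3.42 ± 0.32 (SE, n = 3 per group). Foxo1dd 2, the sample at 0, had 94 short RNA genes above 0, against 172 to 232 in the other samples. Snord69 overlaps an annotated exon of a Gnl3 transcript, and whether its reads belong to the snoRNA or to Gnl3 was not tested. Snord53, within Wdr43, was at 3.22, 1.13 and 1.46 against 0.720, 0 and 0 FPKM (log2 change -1.23). It spans 78 bases, so its values rest on few reads. Snord69 and Snord53 were called lower, but reached the mean of 1 FPKM needed for testing through their Foxo1ff values. Nothing is read from these calls. The other 3 tested were not called and their groups overlapped: Snora75 within Ncl (2.513, 3.583 and 2.501 against 5.70, 0 and 1.22 FPKM), Snord57 within Nop56 (1.42, 3.06 and 3.65 against 2.67, 0 and 0.747 FPKM) and Snord19 within Gnl3 (0.415, 2.07 and 3.58 against 0, 0 and 1.96 FPKM).

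Of the abundant nucleolar proteins, Npm1 (nucleophosmin), a chaperone and scaffold of the granular zone, had the highest level of the 55. It was at 1008, 1156 and 1085 in the Foxo1ff samples against 520, 447 and 466 FPKM in the Foxo1dd samples. Ncl (nucleolin), an RNA-binding protein of the early precursor, was at 155, 151 and 131 against 72.0, 52.6 and 71.8 FPKM. Ddx21, a helicase of RNA polymerase I transcripts and snoRNAs, was at 42.2, 42.8 and 41.5 against 25.8, 17.1 and 20.5 FPKM. The means of Npm1, Ncl and Ddx21 were 2.27-fold, 2.22-fold and 1.99-fold lower. Without Npm1, which has many processed pseudogenes with which reads can be exchanged, the summed level of the other 54 genes was 2482 to 2580 in the Foxo1ff samples against 1234 to 1414 FPKM in the Foxo1dd samples.

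Small subunit assembly was represented by 20 genes, of which 18 were called lower and 1 higher, with a median log2 change of -0.80 (-0.66 under median-of-ratios scaling). Utp20, a long scaffold protein, was at 15.5, 10.98 and 10.9 in the Foxo1ff samples against 4.71, 2.94 and 4.19 FPKM in the Foxo1dd samples. Heatr1, which links RNA polymerase I transcription to early processing, was at 12.3, 10.8 and 10.6 against 6.05, 2.84 and 4.88 FPKM. Their log2 changes were -1.44 ± 0.20 and -1.18 ± 0.22 (SE, n = 3 per group), with no overlap of the groups. Rrp12, an export and maturation factor, had -1.13, Imp4 -1.10, Tsr1, a late GTPase-like factor, -1.10, Mphosph10, a partner of Imp4, -1.07, Nat10, the acetyltransferase of small subunit RNA, -1.04 and Rrp9, a core protein of a processing snoRNP, -1.02. Wdr75, Utp15, Utp18 and Ddx10, a helicase, lay between -0.99 and -0.74. By their means Rrp12, at 1.77 FPKM in Foxo1dd, was 2.83-fold lower and Imp4 2.20-fold.

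Smaller differences were seen for Utp14a (-0.58), Wdr43 (-0.54), Nop14 (-0.54), Ltv1 (-0.50), Imp3 (-0.49) and Pno1 (-0.44), all as log2 changes. Bms1, a GTPase of the processome, had all 3 Foxo1dd values (16.6, 11.8 and 17.0 FPKM) below all 3 Foxo1ff values (22.6, 20.2 and 17.2 FPKM) by a narrow margin and was not called (-0.39 ± 0.17, SE, n = 3 per group). Under the 16 alternatives Utp14a and Pno1 lost their call in 6 each, Ltv1 in 5, Wdr43 in 3 and Imp3 in 1. Leaving out a single sample was enough for Utp14a (any but Foxo1dd 1), Pno1 (Foxo1ff 2, Foxo1ff 3 or Foxo1dd 3), Ltv1 (Foxo1ff 1, Foxo1ff 3 or Foxo1dd 2) and Wdr43 (Foxo1ff 1 or Foxo1ff 2).

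Nob1, the endonuclease that makes the final cut of the small subunit RNA, went the other way. It was at 28.8, 29.4 and 32.0 in the Foxo1ff samples against 41.4, 41.3 and 41.1 FPKM in the Foxo1dd samples. The Foxo1dd values were almost equal and lay above all Foxo1ff values (log2 change 0.44 ± 0.11, SE, n = 3 per group, 0.59 under median-of-ratios scaling). Pno1, which binds Nob1 on the maturing subunit, was at 50.9, 59.6 and 60.9 against 48.4, 43.5 and 34.2 FPKM. Of 40 further small subunit assembly genes, 26 were lower and 4 higher (65.0% lower, against 34.2% of all tested genes). Their median log2 change was -0.51. The count of lower genes was 19 under median-of-ratios scaling, beside 28.8% of all tested genes. Ddx52, a helicase, fell from 192 ± 20.4 to 30.3 ± 0.964 FPKM (SD, n = 3 each; log2 change -2.62, limma adjusted p = 5.80e-07), which exceeded every one of the 54 assembly genes. Aatf, Utp4 and Emg1, a methyltransferase, had -1.06, -0.99 and -0.77. The 4 that rose, named after their values were seen, were Noc4l (0.65), Ngdn (0.44), Riok3 (0.44), a late-acting kinase, and Rcl1 (0.40), as log2 changes.

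All 17 large subunit assembly genes were called lower, with a median log2 change of -1.18 (-1.05 and 16 called under median-of-ratios scaling). Ppan was at 62.7, 58.3 and 49.6 in the Foxo1ff samples against 19.2, 11.8 and 16.1 FPKM in the Foxo1dd samples. Gnl3 (nucleostemin), a nucleolar GTPase abundant in dividing cells, was at 60.7, 59.8 and 61.9 against 20.1, 15.8 and 14.7 FPKM. These had the largest differences of the set, 3.62-fold and 3.61-fold lower by their means. Gnl2, a related GTPase, had a log2 change of -1.53, Grwd1, a ribosomal protein chaperone, -1.48, Rrp1b -1.47, Nop2, a methyltransferase of large subunit RNA, -1.46, Mrto4, a placeholder for a stalk protein, -1.37, and Rrs1 -1.22.

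At the other end lay Bop1 (-0.40), Gtpbp4, a GTPase (-0.57), Nop16 (-0.59) and Wdr74 (-0.66), with Ddx18, Pes1, Ebna1bp2 and Nip7 between -0.73 and -0.90. Bop1 was at 37.2, 29.3 and 28.0 in the Foxo1ff samples against 24.0, 22.4 and 23.7 FPKM in the Foxo1dd samples, and lost its call in 7 of 16 alternatives, including without any single sample but Foxo1ff 3. Of 50 further large subunit assembly genes, 32 were lower and 3 higher (64.0% lower, against 34.2% of all tested genes). Their median log2 change was -0.65. The smallest p belonged to Lyar, Ddx27, Nle1 and Rrp15, which fell by 1.40, 1.20, 1.46 and 1.29 on the log2 scale (limma adjusted p from 2.75e-05 to 1.17e-04). The 3 that rose, named after their values were seen, were Ddx51 (0.78), Las1l (0.76) and Ddx24 (0.46). Of 15 genes of the RNA exosome and its partners, which trim the ends of the precursor, 11 were lower and 0 higher by limma. The share lower was 73.3%, against 34.2% of all tested genes. At an unadjusted limma p under 0.05, 0 were higher, and the median log2 change was -0.50. Exosc2, Dis3, Exosc8 and Xrn2 fell by 1.44, 1.36, 1.22 and 0.65.

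Ratios of partner genes within a sample do not depend on how libraries are scaled to each other. The pairs were chosen after the values had been seen, from genes chosen for the same values, so the ratios restate the changes above and support nothing further. Dkc1 to Nhp2 stood at 0.297, 0.236 and 0.210 in Foxo1ff and 0.139, 0.0758 and 0.117 in Foxo1dd. Polr1a to Ubtf stood at 0.484, 0.451 and 0.431 against 0.189, 0.178 and 0.159, and Polr1a to Rrn3 at 0.548, 0.477 and 0.394 against 0.229, 0.163 and 0.213. Neither ratio of Polr1a overlapped between the genotypes.

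In the complex of Pes1, Bop1 and Wdr12, which acts on the large subunit precursor, Wdr12 to Pes1 stood at 0.229, 0.201 and 0.262 in Foxo1ff and 0.177, 0.132 and 0.153 in Foxo1dd. Bop1 to Pes1 moved the opposite way, from 0.744, 0.543 and 0.616 to 0.783, 0.823 and 0.789. Pno1 to Nob1 went from 1.77, 2.02 and 1.90 to 1.17, 1.05 and 0.833, so that Pno1 exceeded Nob1 in every Foxo1ff sample and fell below it in Foxo1dd 3. Imp4 to Imp3, partners in the processome, went from 0.255, 0.190 and 0.198 to 0.160, 0.106 and 0.146. Of 17 pairs computed, 2 overlapped between the groups. Ncl to Npm1 was at 0.121 to 0.153 and 0.118 to 0.154, and Gar1 to Nop10, of the same particle as Dkc1 and Nhp2, at 0.307 to 0.508 and 0.224 to 0.346.

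**Figure D3:**
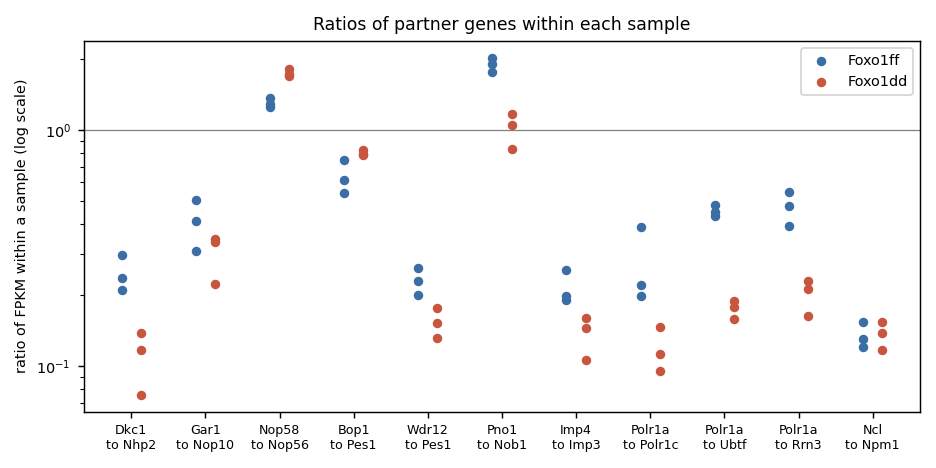
Ratio of FPKM of 11 of the 17 pairs of partner genes within each sample, on a log axis, with 3 Foxo1ff and 3 Foxo1dd points a pair; the horizontal line marks equal levels. Among the pairs drawn the groups overlap for Gar1 to Nop10 and Ncl to Npm1 and are apart for the others, with Polr1a to Ubtf going from 0.431 to 0.484 in Foxo1ff to 0.159 to 0.189 in Foxo1dd.

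Genes outside the nucleolus that MYC is known to activate were set beside the 55. Of 30, 26 were lower and 2 higher (86.7% lower, against 34.2% of all tested genes), with a median log2 change of -0.79. This list was also chosen with earlier results of these data known, so nothing is read from that comparison. Tfrc, the transferrin receptor, fell from 74.0 ± 10.2 to 6.04 ± 0.529 FPKM (SD, n = 3 each; log2 change -3.40, limma adjusted p = 3.81e-07). Srm, spermidine synthase, fell from 68.7 ± 3.76 to 9.53 ± 4.01 FPKM (log2 change -2.79, limma adjusted p = 1.42e-05). C1qbp and Ranbp1 fell by 1.75 and 1.48 on the log2 scale. Ldha, lactate dehydrogenase A, and Eif3b, named after their values were seen, rose by 0.96 and 0.60. Of 15 tested p53 target genes, which respond to nucleolar stress among other signals, 9 were lower and 1 higher (60.0% lower, against 34.2% of all tested genes). Under median-of-ratios scaling 8 were lower, beside 28.8% of all tested genes. The 4 with the smallest p were Eda2r, Cdkn1a, the cell cycle inhibitor p21, Zmat3 and Bax, with log2 changes of -3.07, -4.38, -1.84 and -1.07.

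Ribosomal protein genes, whose products the assembly factors fold into the subunits, had medians nearer to 0. Of 77 tested cytosolic ribosomal protein genes, 38 were lower and 1 higher (49.35% lower, against 34.2% of all tested genes). Their median log2 change was -0.41. The smallest p belonged to Rps27, which rose by 1.75 log2, and to Rpl34, Rpsa and Rps2 (-0.91, -0.78 and -0.78). The count of lower genes depended on the processing. Under median-of-ratios scaling 12 of the 77 were lower, beside 28.8% of all tested genes. It was 59 without Foxo1ff 1, against 19 without Foxo1ff 2, 21 without Foxo1ff 3 and 24 without Foxo1dd 3. Of 78 mitochondrial ribosomal protein genes, 32 were lower and 7 higher (41.0% lower, against 34.2% of all tested genes), with a median of -0.32, and 20 were lower without Foxo1ff 2. Under median-of-ratios scaling 22 of the 78 were lower, beside 28.8% of all tested genes. Mrpl21 fell by 1.44, and Mrps12, Mrpl50 and Mrps22 by 0.88, 0.93 and 1.02. Differences between these lists and the 55 genes were not tested. Many of these genes have processed pseudogenes, so their split is uncertain.

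**Figure D4:**
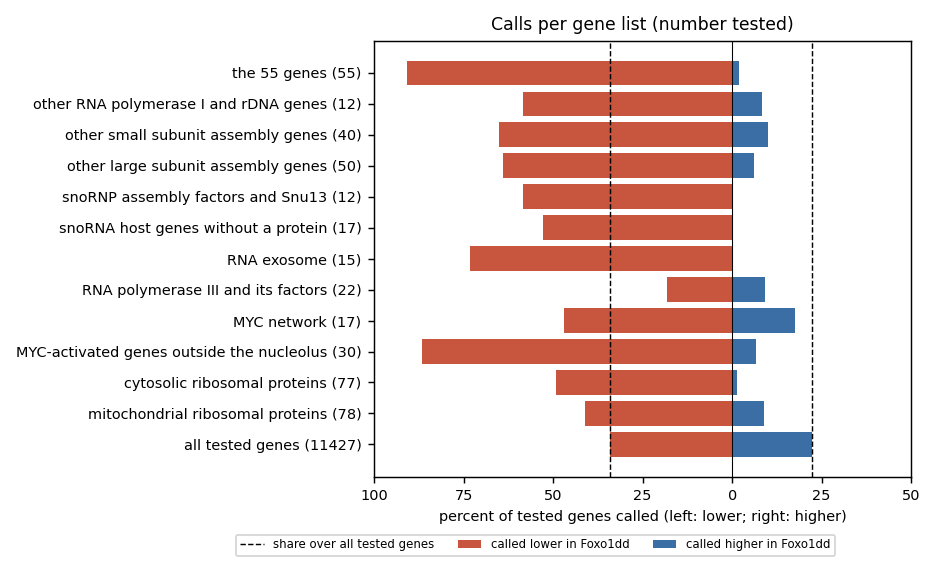
Percent of tested genes called lower (left of 0) or higher (right of 0) in Foxo1dd for the 55 genes, 9 pathway lists and both ribosomal protein lists, with the number tested in brackets; dashed lines are the shares over all tested genes (34.2% lower, 22.2% higher). The 55 genes and the MYC-activated genes have the longest bars to the left, and among the lists drawn, that of RNA polymerase III alone has a shorter bar to the left than all tested genes.

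Within groups, the 55 genes varied little in Foxo1ff, with a median coefficient of variation of 7.17% against 12.4% for all tested genes. Their median level in Foxo1ff was also higher, 35.35 against 14.54 FPKM, and the spread was not compared at matched level. In Foxo1dd the median was 17.0% for the 55 genes, near the 16% of all tested genes. Foxo1dd 2 had the lowest of the 3 Foxo1dd values for 35 of the 55 genes, and for 56.5% of all tested genes. Its distance from the other Foxo1dd samples went with gene length: across the 55 genes, Pearson's r between the log2 of summed exon length and the difference of Foxo1dd 2 from the mean of Foxo1dd 1 and 3 was -0.41 (Spearman's rho -0.52), and across 11297 tested genes -0.21 (-0.33). Genes share a library and are no independent replicates, so these are descriptions. For the 28 genes of at most 3837 bases the median of that difference was -0.07, and for the 27 longer genes -0.40. With Foxo1dd 2 left out, the median difference between genotypes over the 55 genes was -0.97, and its r with length was -0.08. Without this sample 47 of the 55 genes were called lower and 1 higher. Over all genes tested, leaving out each sample in turn gave 3050 to 3751 lower and 2134 to 2714 higher. Foxo1dd 1 was the highest of the 3 Foxo1dd samples for 44 of the 55 genes and Foxo1dd 3 for 3. Foxo1dd 2 was the highest for 8, namely Polr1c, Rrn3, Nhp2, Nop10, Utp18, Imp3, Gnl2 and Nip7. The matching shares over all tested genes were not computed, so nothing is read from these counts.

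**Figure D5:**
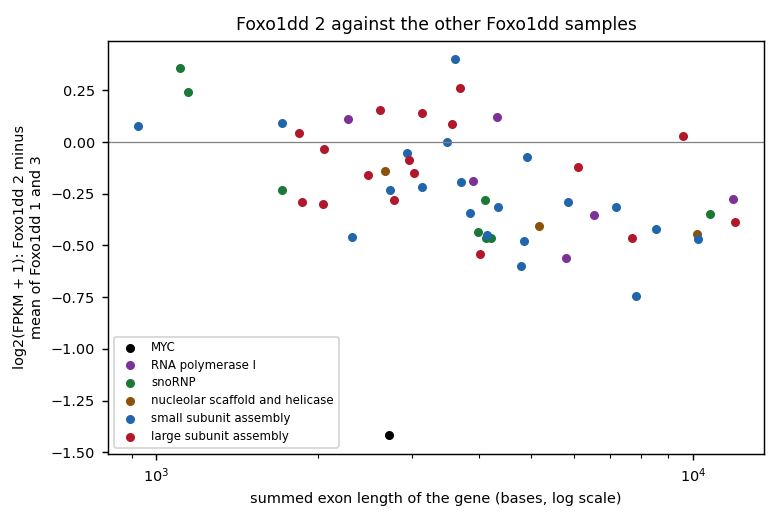
Difference in log2(FPKM + 1) between Foxo1dd 2 and the mean of Foxo1dd 1 and 3 (vertical axis) against the summed exon length of each of the 55 genes in bases (log axis), coloured by step. Longer genes tend to lie lower (r = -0.41), and Myc stands apart near -1.4.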

How the data were processed

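The deposited table holds FPKM values (reads scaled for gene length and library size), made by the authors, for 24964 genes in 6 samples. Per the submitters' processing notes, the build was mm10 and the tools DESeq2 1.12.4, edgeR 3.28.0, featureCounts 1.5.0-p1 (Subread) and STAR 2.5.2b, in no stated order. How strand was set, which annotation and lengths were used and whether libraries were scaled further is not given in the sources used here. As strand is unknown, a gene and its antisense neighbour cannot be told apart: 20 of the 55 genes overlap antisense exons in GENCODE M21, and 5 (Nop56, Nop58, Ncl, Gnl3 and Ppan) same-strand exons of small RNA genes.

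FPKM are no counts, so log2(FPKM + 1) was fitted with limma 3.58.1 in R 4.3.3 (lmFit, eBayes with a trend), genotype being the only term. The test took the 11427 genes whose mean reached 1 FPKM, leaving out 13537, and Benjamini-Hochberg adjustment ran over all of them. All 55 genes passed this filter, and none was at 0 in any sample. The procedure was tested on simulated data. Median-of-ratios factors came from tested genes above 0 throughout. FPKM per read was read from short RNA genes as the largest step giving whole values for most of them.

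The 55 genes, the other lists and the steps were chosen with earlier results of these data known. Of each other pathway list, the up to 4 genes with the smallest p are named. Other settings tried were no filter or a 5 FPKM one, a pseudocount of 0.1 or 0.5, quantile normalization, scaling by median of ratios, array weights, eBayes made robust or run without its trend, the bioreplicate number as a block, and leaving out each sample. Sequences are from RefSeq (GRCm38.p6).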

Additional observations from a re-analysis of the deposited data

How the results depend on the processing

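Under 16 alternatives the number of the 55 genes called lower was 45 to 51, and Nob1 was the 1 called higher each time. Under median-of-ratios scaling the number lower was 45, beside 28.8% of all tested genes. Of 51 called genes, 44 kept call and direction under every alternative that tested them. The 7 others were Nhp2 and Imp3 (lost under median-of-ratios scaling), Wdr43, Utp14a, Ltv1, Pno1 and Bop1. Leaving out each sample gave 46 to 49 lower, beside 3050 to 3751 of all genes tested. At a minimum of 5 FPKM, 2 of the 55 genes were not tested. The changes of Ubtf (0.07, but -0.03126 without Foxo1ff 3, -0.0089 without Foxo1dd 3 and 0.1891 at most, without Foxo1dd 2) and Rrn3 (-0.07, but 0.08055 under median-of-ratios scaling and 0.08617 under quantile normalization) turned sign, none being called. Cytosolic ribosomal proteins called lower numbered 38, but 19 without a filter, 12 under median-of-ratios scaling, 13 under quantile normalization, 59 with array weights and 19 to 59 on leaving out each sample. RNA polymerase III genes called lower went from 4 to 2 without a filter and were 2 to 4 on leaving out each sample, MYC network genes from 8 to 5 at a minimum of 5 FPKM and 4 to 8 (4 without Foxo1ff 2), and mitochondrial ribosomal proteins 20 to 35. With tested protein-coding genes as background in place of all promoters, the share with CACGTG went from 8.09% to 12.2%. The cause of these shifts was not tested. Deviations from the group means had r = 0.12, 0.11 and -0.13 between same-numbered samples of the 2 genotypes. Between differently numbered samples r was -0.21 to 0.15. With 3 samples a group these values cannot decide whether the numbers mark pairs, and the labels do not say. With the replicate block 50 of the 55 genes were again called lower and 1 higher, and 3724 of all tested genes were lower and 2417 higher.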
